A study of Mus musculus with 6 samples.

Results

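Small leucine-rich proteoglycans are secreted proteins of the extracellular matrix, and the 10 genes of this family described here were Dcn, Lum, Bgn, Fmod, Ogn, Prelp, Aspn, Omd, Podn and Ecm2. They were taken by symbol from the gene table of a mouse aorta series, where each symbol matched 1 row, so they make up 10 of 55335 genes in all. All 10 passed the filter on low counts that left 16612 genes to test. RNA was sequenced from aorta of 6-week-old (young) and 6-month-old (aged) mice, 3 of each, with 1 library per mouse. All were wild type (WT) animals of the C57BL/6 strain, stated to be male, and no group carried an allele or received an agent that the other lacked. The question asked was how the family differs between young and aged aorta. Each vessel was taken as a piece after the surrounding fat had been dissected, so the RNA of a library comes from the wall with whatever tissue stayed on it.

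In the vessel wall, proteins of this family sit on collagen fibrils through a curved stretch of leucine-rich repeats. They set the thickness and spacing of the fibrils, bind growth factors of the TGF-beta family, and many of them carry chains of chondroitin, dermatan or keratan sulfate. Class I holds decorin (Dcn), biglycan (Bgn) and asporin (Aspn), and class II holds lumican (Lum), fibromodulin (Fmod), Prelp and osteomodulin (Omd). Osteoglycin (Ogn) belongs to class III and podocan (Podn) to class V, while Ecm2 is a related matrix protein with the same kind of repeats. Biglycan and decorin are the members best known from arteries, and mice without biglycan are known for rupture of the aorta.

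Promoter sequence of 8 of the 10 genes was at hand from RefSeq (GRCm38.p6), and none was listed for Dcn and Lum. The sequences given here are the 250 bases before the start of Bgn, Ecm2, Fmod and Podn. Bgn and Ecm2 are the members whose young and aged values did not overlap. Fmod and Podn, like Dcn, Lum and Aspn, were above every young library in aged 1 and aged 3 but not in aged 2. The sequence of Aspn is not given here. Those given lie at chrX:73483351-73483600 on the plus strand (Bgn), chr13:49504560-49504809 on the plus strand (Ecm2), chr1:134037004-134037253 on the plus strand (Fmod) and chr4:108031955-108032204 on the minus strand (Podn). Capitals mark the GC box, GGGCGG or its complement CCGCCC, which is bound by factors of the Sp family.
Bgn: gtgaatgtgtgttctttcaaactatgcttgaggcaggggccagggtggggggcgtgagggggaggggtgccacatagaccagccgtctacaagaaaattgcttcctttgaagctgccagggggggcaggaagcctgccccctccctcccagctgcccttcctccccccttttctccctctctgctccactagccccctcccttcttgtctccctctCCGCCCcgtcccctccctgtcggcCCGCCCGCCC
Ecm2: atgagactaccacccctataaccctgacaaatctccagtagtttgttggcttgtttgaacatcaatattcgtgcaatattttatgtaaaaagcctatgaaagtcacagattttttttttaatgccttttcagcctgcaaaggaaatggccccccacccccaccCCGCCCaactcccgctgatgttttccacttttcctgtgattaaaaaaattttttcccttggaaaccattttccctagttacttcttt
Fmod: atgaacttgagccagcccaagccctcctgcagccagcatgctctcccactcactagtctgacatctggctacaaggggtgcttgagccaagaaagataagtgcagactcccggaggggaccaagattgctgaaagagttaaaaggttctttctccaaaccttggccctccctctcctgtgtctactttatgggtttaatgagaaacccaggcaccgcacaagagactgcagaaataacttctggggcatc
Podn: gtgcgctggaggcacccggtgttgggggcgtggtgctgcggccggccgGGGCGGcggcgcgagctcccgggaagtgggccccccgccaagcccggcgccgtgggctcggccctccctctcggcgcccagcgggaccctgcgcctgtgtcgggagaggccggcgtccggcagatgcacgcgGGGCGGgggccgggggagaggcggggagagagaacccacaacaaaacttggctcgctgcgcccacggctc

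The 4 sequences are unlike in base composition. G and C make up 78% of the Podn sequence and 64.4% of that of Bgn, against 51.2% for Fmod, 40% for Ecm2 and a median of 52% over 27025 promoters. Searched on both strands of these 250 bases, the GC box was found in 3 of the 8 members, Bgn, Podn and Ecm2, and in 32.9% of all promoters. In Bgn it matched 3 times, the last 2 matches sharing bases, in Podn 2 times and in Ecm2 1 time. The TATA box motif TATAAA was found in Ogn and Aspn (13% of all promoters) and the CCAAT box CCAAT in Prelp and Aspn (34.5%). In Ogn the TATAAA matches lay 229 to 222 bases before the start. In Aspn they lay 207 to 202 and 178 to 173 bases before the start. The AP-1 site TGANTCA (6.87%) and the CArG box (1.4%), known from smooth muscle genes, were found in none of the 8. For Podn the RefSeq start lies inside the longer gene span of the GENCODE annotation.

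Before the results, 3 libraries need a remark. In young 1, Xist was at 305 CPM (counts scaled to the TMM-adjusted library total) against at most 0.636 CPM in any other library, and the Y-linked gene Ddx3y was at 1.09 CPM against 44.7 to 65.6 CPM, which goes against the stated sex. The cardiac gene Myh6 was also highest there, at 79.6 CPM. In aged 2 the brown fat gene Ucp1 was at 1421 CPM against 45.1 to 360 CPM in the other 5 libraries, and in aged 3 the endothelial gene Pecam1 was at 869 CPM against 166 to 225 CPM. Total counts were 31049632 to 45832185 per library, and transcripts of the mitochondrial genome took 14.9% to 21.2% of the counts in the young libraries and 23.1% to 30.4% in the aged. The labelled tissue was borne out by its own genes, since 8 of 8 smooth muscle markers were measured and Acta2 alone stood at 12218 to 18104 CPM.

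The family was abundant in every library. Its 10 genes took 0.727% to 1.14% of all counts, with 456 counts (Omd in young 3) to 253638 counts (Bgn in young 1) for a single gene in a library. Compared per length as FPKM (reads scaled for gene length and library total, averaged over the 6 libraries), Bgn stood first at 789, followed by Ogn at 276, Prelp at 181 and Dcn at 176. Lum followed at 81.5 FPKM, Ecm2 at 42.0, Aspn at 32.5, Fmod at 32.2, Podn at 10.1 and Omd at 7.58. The steps from Bgn to Ogn, Ogn to Prelp, Dcn to Lum and Fmod to Podn held in 6 of 6 libraries. Prelp and Dcn kept their order in 4 of 6, as did Lum and Ecm2 and also Ecm2 and Aspn, and the pairs Aspn and Fmod and Podn and Omd did so in 3 of 6, so that these neighbours cannot be ranked.

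As a share of the summed FPKM of the 10 genes, Bgn made up 51.0% ± 3.31 of the young and 47.3% ± 6.59 of the aged family (SD, n = 3 each). The share of Dcn was 4.86%, 6.71% and 8.88% in the young libraries and 17.7%, 5.91% and 17.7% in the aged ones. Dcn therefore took its largest shares in aged 1 and aged 3, while aged 2 lay among the young libraries. Prelp went from 12.5% ± 0.16 to 9.88% ± 0.68 of the family and Ecm2 from 3.25% ± 0.11 to 2.03% ± 0.52 (SD, n = 3). For both, every aged share was below every young share. Aspn alone had every aged share above every young share. It was at 1.97%, 1.46% and 1.49% in the young and 2.31%, 2.11% and 2.48% in the aged libraries. A share falls when another member grows, so these values are a description of make-up only.

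**Figure D1:**
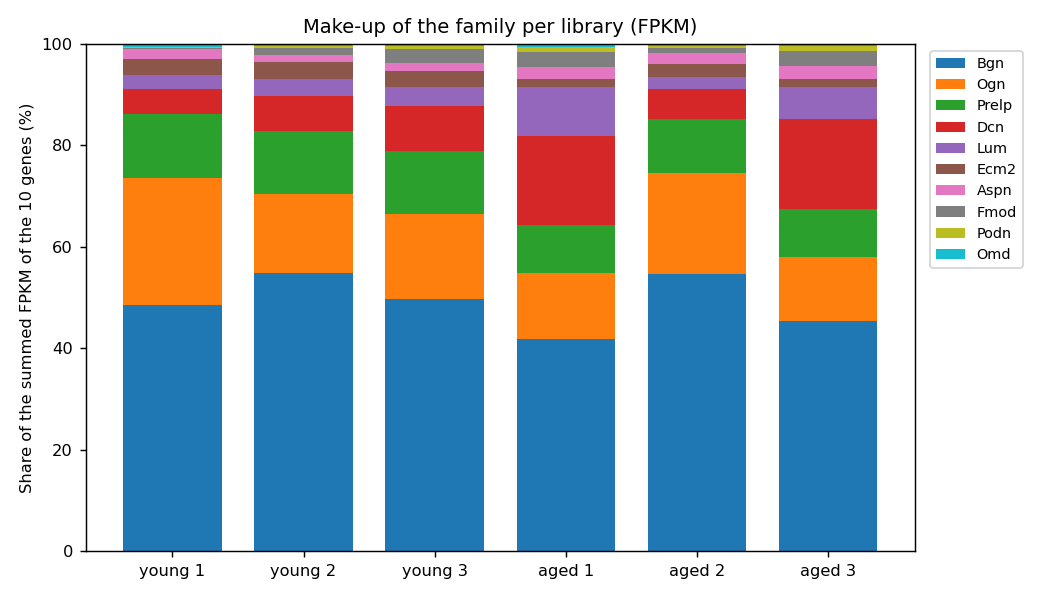
Make-up of the family in each library: the height of each coloured part is the share (%) of a gene in the summed FPKM of the 10 genes, with 1 bar per mouse. Bgn is the largest part in every bar, and the Dcn part is 17.7% in aged 1 and aged 3 but 5.91% in aged 2.

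Young and aged aorta were then compared gene by gene. No member passed the adjusted threshold of 0.05 in the quasi-likelihood test of edgeR (Benjamini-Hochberg, 16612 genes), where 0% of all genes were called. The lowest adjusted p of any gene was 0.189, while 1723 genes had an unadjusted p under 0.05. DESeq2 called 334 of 15276 genes (2.19%) and again 0 of the 10 members. At an unadjusted p under 0.05 in edgeR, 2 members were higher in aged aorta (Dcn and Aspn) beside 5.56% of all genes, and 1 was lower (Ecm2) beside 4.82%. By sign alone 7 members were higher and 3 lower (6 and 4 on the FPKM scale, where Bgn turned), with a median log2 fold change of 0.62, against 8654 higher, 7958 lower and a median of 0.020 for all genes tested. P-values here measure the spread between mice, of which there were 3 per group.

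Decorin (Dcn, ENSMUSG00000019929) coats collagen fibrils and binds TGF-beta. Its gene lies on chromosome 10, from 97479609 to 97518143 on the plus strand (GRCm38). It was measured at 501, 549 and 838 CPM in the young libraries and at 2592, 548 and 2016 CPM in the aged libraries. Aged 1 and aged 3 lay above every young library and aged 2 within the young range, so the groups overlapped. The mean was 629 ± 183 CPM in young and 1718 ± 1054 CPM in aged aorta (SD, n = 3), a log2 fold change of 1.45 ± 0.53 (SE) with an adjusted p of 0.436 in edgeR. Relative to the young mean, the aged libraries stood at 4.12, 0.870 and 3.20. Without aged 2, the log2 fold change of Dcn was 1.87 and it was called in edgeR (adjusted p = 0.0488), 1 of 100 genes called higher or 0.583% of 17147 genes tested. When young 1 was left out as well, it was 1.74 with an adjusted p of 0.0889 in edgeR. Without aged 1, the highest library, it was 1.03 (adjusted p = 0.659 in edgeR). On the FPKM scale with a pseudocount of 1 the difference was 0.99 (unadjusted p = 0.121 in limma).

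Biglycan (Bgn, ENSMUSG00000031375), the closest relative of decorin, lies on chromosome X, from 73483602 to 73495933 on the plus strand. It was measured at 5231, 4680 and 4916 CPM in the young libraries and at 6408, 5291 and 5410 CPM in the aged libraries. Every aged value was above every young value, which 7.74% of all genes did in that direction, and the distance between the nearest libraries was small. In log2 terms Bgn differed by 0.21 ± 0.18 (SE) with an adjusted p of 0.690 in edgeR, but on the FPKM scale, which is divided by plain library totals, the groups overlapped and the difference was -0.018. On that scale the median of all genes was itself shifted to -0.12 or -0.19, with a pseudocount of 1 or 0.1. Without young 1 the log2 fold change of Bgn was 0.26, as it was without aged 2, and without aged 1 it was 0.11.

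Asporin (Aspn, ENSMUSG00000021388), which competes with decorin for collagen and carries a stretch rich in aspartate, lies on chromosome 13, from 49544443 to 49567565 on the plus strand. Its values were 82.1, 48.2 and 56.8 CPM in the young and 137, 79.0 and 114 CPM in the aged libraries. Aged 1 and aged 3 were above the young range, and aged 2 fell just below young 1. Aged exceeded young aorta by 0.82 ± 0.27 (SE) on the log2 scale, with an adjusted p of 0.414 in edgeR, the lowest of the 10 members. Without young 1 and aged 2, which stand apart, it was 1.26 with an adjusted p of 0.0789 in edgeR. Without aged 1 it was 0.63 (adjusted p = 0.631 in edgeR), and on the FPKM scale with a pseudocount of 1 the difference was 0.58.

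**Figure D2:**
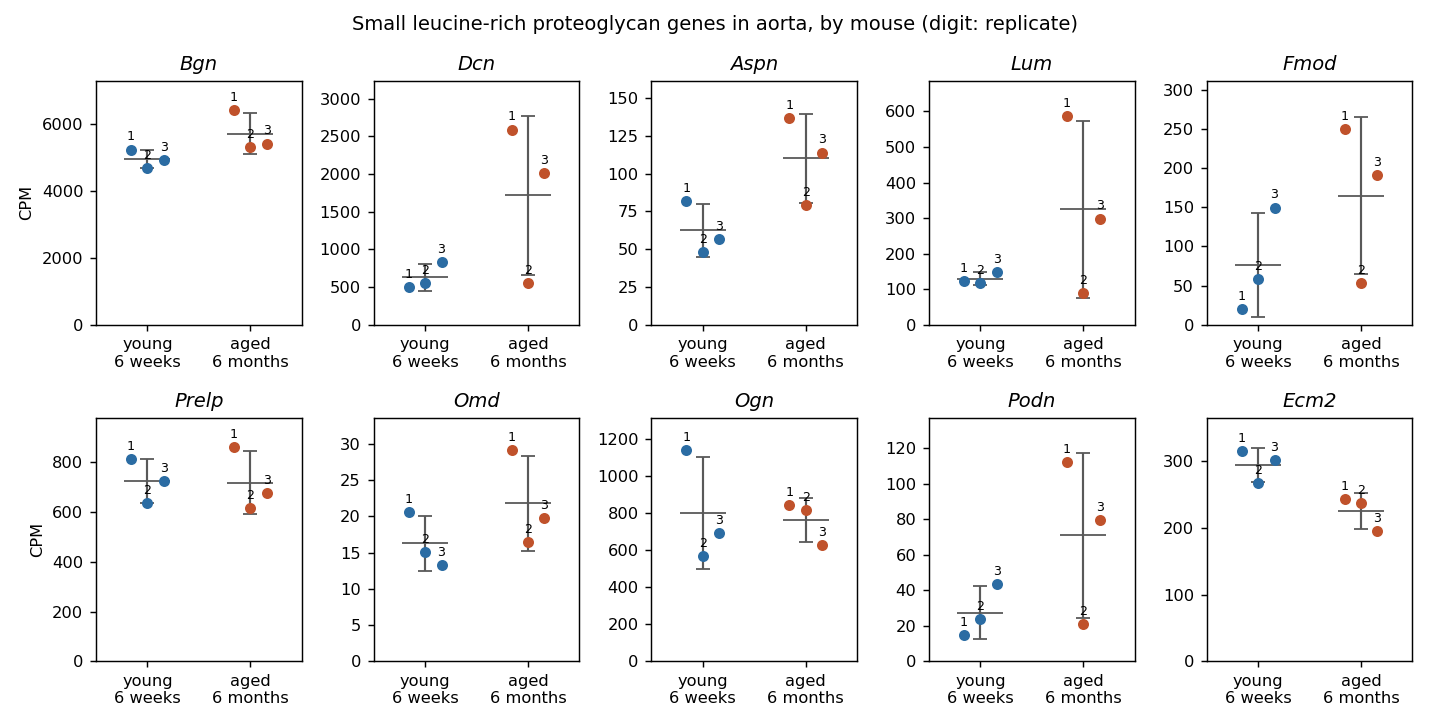
CPM of the 10 genes in each mouse (points, digit for the replicate), with the mean and SD of each group as line and bar, and a linear axis from 0 for each gene. Aged 1 and aged 3 are above all young mice for Dcn, Lum, Fmod, Aspn and Podn while aged 2 is not. The groups do not overlap for Bgn and Ecm2, and for Bgn this does not hold on the FPKM scale.

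Lumican and fibromodulin share a binding site on collagen and both carry keratan sulfate in some tissues. Lumican (Lum, ENSMUSG00000036446) is on chromosome 10, from 97565128 to 97572703 on the plus strand. It was measured at 122, 118 and 149 CPM in the young and at 586, 90.2 and 299 CPM in the aged libraries. Its highest and its lowest value were thus both from aged mice. The log2 fold change of Lum was 1.33 ± 0.58 (SE, adjusted p = 0.486 in edgeR), and without aged 2 it was 1.77 (adjusted p = 0.0639 in edgeR). Without aged 1 it was 0.59 (adjusted p = 0.760 in edgeR), and on the FPKM scale with a pseudocount of 1 the difference was 0.74.

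Fibromodulin (Fmod, ENSMUSG00000041559), on chromosome 1 from 134037254 to 134048277 on the plus strand, was the most variable member. Its values were 20.0, 58.9 and 150 CPM in the young and 249, 53.7 and 191 CPM in the aged libraries, a 12.4-fold range. Young 1 was the lowest library, and young 3 lay nearer to aged 3 than to the other young libraries. Its log2 fold change was 1.11 ± 0.77 (SE, adjusted p = 0.635 in edgeR), and it ran from 0.66 without young 1 to 2.06 without young 3, with 0.68 without aged 1.

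The remaining members of class II varied less. Prelp (ENSMUSG00000041577, chromosome 1, 133910304 to 133921414, minus strand) binds heparan sulfate and basement membranes. It was measured at 813, 634 and 724 CPM in young and 859, 614 and 677 CPM in aged aorta. The groups lay on top of each other, and the log2 fold change was -0.014 ± 0.19 (SE, adjusted p = 0.986 in edgeR), with a sign that turned in 4 of 15 alternative settings. Osteomodulin (Omd, ENSMUSG00000048368, chromosome 13, 49582462 to 49592822, plus strand) is best known from bone. It was the member with the lowest level per length, at 20.5, 15.05 and 13.3 CPM in young and 29.2, 16.5 and 19.8 CPM in aged libraries. Only aged 1 was above all young libraries, and the log2 fold change of Omd was 0.42 ± 0.27 (SE, adjusted p = 0.613 in edgeR) and 0.15 without that library.

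Osteoglycin (Ogn, ENSMUSG00000021390), also called mimecan, lies on chromosome 13 from 49608046 to 49624501 on the plus strand. It was measured at 1140, 566 and 693 CPM in the young and at 842, 817 and 626 CPM in the aged libraries. Young 1 alone stood above the other 5 libraries. Its log2 fold change was -0.070 ± 0.28 (SE, adjusted p = 0.944 in edgeR) with all libraries and 0.28 without young 1.

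Podocan (Podn, ENSMUSG00000028600), known to restrain the growth of smooth muscle cells, lies on chromosome 4 from 108014791 to 108096445 on the minus strand. It had 14.6, 23.7 and 43.7 CPM in the young and 112, 20.97 and 79.5 CPM in the aged libraries. As for Dcn, aged 1 and aged 3 were above every young library and aged 2 was not. The log2 fold change of Podn was 1.38 ± 0.63 (SE, adjusted p = 0.504 in edgeR) and 1.81 without aged 2 (adjusted p = 0.158 in edgeR). Without aged 1 it was 0.88 (adjusted p = 0.742 in edgeR), and on the FPKM scale with a pseudocount of 1 the difference was 0.89.

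Ecm2 (ENSMUSG00000043631, chromosome 13, 49504810 to 49532789, plus strand) was the single member with every aged value below every young value, which 8.78% of all genes showed in that direction. It was measured at 316, 267 and 301 CPM in the young and at 244, 238 and 195 CPM in the aged libraries. Here aged 2 lay with the other aged libraries, not with the young. Its log2 fold change was -0.39 ± 0.16 (SE), with an adjusted p of 0.474 in edgeR. It was lower in each of 15 alternative settings, from -0.61 to -0.29. For the members not yet given without young 1, the log2 fold change was then 1.31 (Dcn), 1.29 (Lum), 1.08 (Podn), 1.07 (Aspn), 0.63 (Omd), 0.085 (Prelp) and -0.32 (Ecm2), and 0 members were called.

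**Figure D3:**
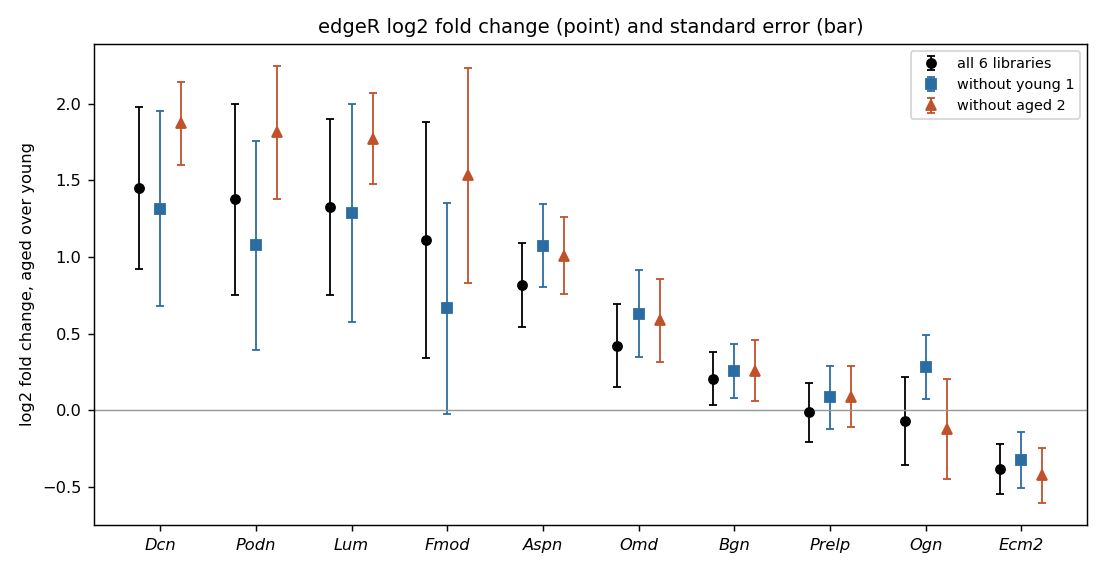
edgeR log2 fold change of aged over young aorta (point) with its standard error (bar) for the 10 genes, from all 6 libraries, without young 1 and without aged 2. Dcn goes from 1.45 to 1.87 without aged 2 and Ogn from -0.070 to 0.28 without young 1. The point of Bgn is above 0 in each of these 3 fits but at -0.018 on the FPKM scale.

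Ratios of related members do not depend on library size. For each CPM of Dcn there were 10.4, 8.53 and 5.86 CPM of Bgn in the young libraries and 2.47, 9.66 and 2.68 in the aged ones. Aged 1 and aged 3 had the lowest ratios, and aged 2 lay within the young range. The log2 ratio differed by -1.01 between the group means (aged minus young), with p = 0.3 in an exact two-sided permutation test, where 3 against 3 cannot go below 0.1. The ratio of Fmod to Lum was 0.164, 0.501 and 1.00 in young and 0.425, 0.594 and 0.639 in aged libraries. All aged ratios lay inside the young range, with a difference of 0.32 (exact two-sided permutation test, p = 0.8) whose sign turned to -0.38 without young 1. Adjusted over these 2 ratios, the p-values of the exact permutation tests were 0.6 and 0.8, in a design too small to reach 0.05.

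Most of the family sits in 3 gene clusters. Dcn and Lum are on chromosome 10 in a stretch of 203 kb with Kera and Epyc. Ecm2, Aspn, Omd and Ogn follow each other within 120 kb of chromosome 13, and Prelp and Fmod share 151 kb of chromosome 1 with Optc. On chromosome 10, Dcn and Lum had log2 fold changes of 1.45 and 1.33, and Epyc had 1.06 ± 0.62 (SE). Epyc was at 3.46, 3.53 and 0.873 CPM in young and 3.79, 3.26 and 9.41 CPM in aged libraries. Its groups overlapped, and aged 1, the highest library for Dcn and Lum, was near its young values. Kera, the keratocan gene of the cornea, had 0 counts in 6 of 6 libraries. On chromosome 13 neighbours differed, with -0.39 for Ecm2, 0.82 for Aspn, 0.42 for Omd and -0.070 for Ogn. The same was so on chromosome 1, with -0.014 for Prelp and 1.11 for Fmod. The 4 genes on chromosome 13 lie inside the gene Cenpp on the opposite strand, which had at most 37 counts in a library and shared 7 exonic bases with Aspn and 0 with the other 3. Whether reads were counted by strand was not stated.

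**Figure D4:**
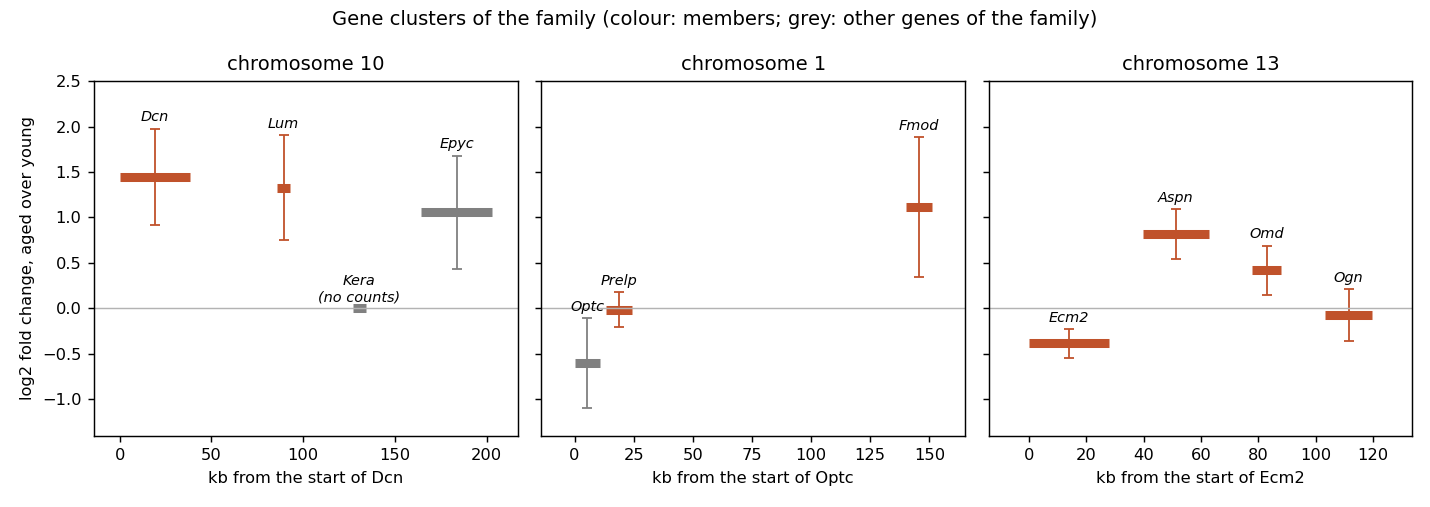
Position and log2 fold change (aged over young, edgeR, bar: standard error) of the genes in 3 clusters, with the gene body as a thick line and distance in kb from the start of the first gene. Members are in colour and other genes of the family in grey, and the mark for Kera, which had no counts, shows its position only. Dcn and Lum have like values (1.45 and 1.33), while Prelp (-0.014) and Fmod (1.11) do not.

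The list of related genes held 8 other genes of the family. Kera and Podnl1 did not pass the filter on low counts, and 0 of the 6 tested had an unadjusted p under 0.05 in edgeR. Opticin (Optc), known from the vitreous of the eye, was the most abundant of them in CPM, at 54.6, 71.3 and 75.6 CPM in young and 27.3, 84.0 and 21.5 CPM in aged libraries. Here aged 2 was the highest library and the other 2 aged libraries were the lowest, with a log2 fold change of -0.60 ± 0.49 (SE). Chad, the chondroadherin gene of cartilage, had the smallest p of these genes and was at 0.640 to 8.33 CPM in young and 0.132 to 1.41 CPM in aged libraries (-1.88 ± 1.10, SE).

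Markers of fibroblasts and macrophages were, like Dcn, Lum, Fmod, Aspn and Podn, highest in aged 1 and aged 3. The summed CPM of 8 fibroblast markers was 523, 561 and 545 in the young and 2436, 510 and 2160 in the aged libraries. Aged 1 and aged 3 stood well above the rest and aged 2 just below the young range. All 8 markers were higher in aged aorta by sign, 6 with an unadjusted p under 0.05 in edgeR, among them Scara5, Clec3b, Dpt, Pdgfra and the most abundant, Pi16, and 3 of the 8 were without overlap. The summed CPM of 7 macrophage markers was 128, 99.9 and 95.5 in the young and 429, 132 and 284 in the aged libraries, and 7 of 7 had an unadjusted p under 0.05, among them Mrc1 (log2 fold change 1.38 ± 0.25, SE) and the most abundant, Lyz2 (1.32 ± 0.43). In whole tissue, more or fewer cells of a type and more or less RNA per cell cannot be told apart, and the part that these cells have in the values of the members was not tested.

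Smooth muscle, endothelial and adipocyte markers were not highest in aged 1 and aged 3 together. The summed CPM of 8 smooth muscle markers was 32326 to 40247 in young and 28058 to 33367 in aged libraries, with 4 of 8 lower at an unadjusted p under 0.05, Lmod1 with the smallest. Endothelial markers summed to 420 to 498 CPM in young aorta and to 393, 343 and 1722 CPM in aged aorta, high in aged 3 alone, and of the 7 markers Emcn alone had an unadjusted p under 0.05. Adipocyte markers summed highest in aged 2, at 3182 CPM against 531 to 1765 CPM in the other 5 libraries, with Plin4 as the most abundant and Elovl3 as the one with the smallest p. Ucp1 (1421 CPM) and Plin4 (900 CPM) made up most of the sum in aged 2. Adipoq, Plin1, Cidec, Cidea and Elovl3 were also highest there, with Adipoq at 94.2 CPM against 87.0 CPM in young 2. Car3 and Lep were highest in young 2 and Retn in young 1. Markers of cartilage, bone and tendon, where several members are abundant, summed to 40.3 to 47.5 CPM in young and to 107, 37.2 and 65.0 CPM in aged aorta, so that aged 1 and aged 3 were again above every young library and aged 2 was not. Comp made up most of this sum, at 23.3 to 37.0 CPM in young and 94.0, 24.9 and 50.9 CPM in aged libraries. Of the 7 tested genes of this list, 3 were higher and 4 lower, with a median log2 fold change of -0.14. Ibsp, at 1.62 CPM or less, had the smallest p and was higher. Next in order of p were Col9a1 (-2.39 ± 0.90, SE) and Sp7 (-1.60 ± 0.67), both lower and at 1.79 CPM or less. Col2a1 of cartilage was at 1.15 CPM or less and Bglap of bone at 0.116 CPM or less. The part of these tissues in the values of the members was not tested.

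Per summed CPM of the fibroblast markers, Dcn was at 0.958, 0.977 and 1.54 in the young and at 1.06, 1.07 and 0.933 in the aged libraries. This range is narrower than the 5.17-fold range of Dcn in CPM, and the aged values lie within or just below the young ones. For Podn this ratio was 0.0279 to 0.0802 in young and 0.0368 to 0.0461 in aged libraries. For Fmod it was 0.0383 to 0.274 in young and 0.0884 to 0.105 in aged libraries, so the aged values lay inside a wide young range. For Lum it was 0.209 to 0.274 in young and 0.241, 0.177 and 0.138 in aged libraries, with aged 2 and aged 3 below the young range. Ecm2 had its lowest ratios in aged 1 and aged 3, with 0.475 to 0.604 in young and 0.10, 0.466 and 0.0901 in aged libraries. This was not particular to Ecm2, since Bgn, Ogn, Prelp, Aspn and Omd also had their lowest ratios in aged 1 and aged 3. Prelp, for example, was at 1.13 to 1.55 in young and 0.353, 1.204 and 0.313 in aged libraries. The marker sum by which these ratios are divided was itself highest in aged 1 and aged 3. Per summed CPM of the smooth muscle markers, Bgn was at 0.162, 0.136 and 0.122 in young and 0.192, 0.181 and 0.193 in aged libraries, and Ecm2 at 0.00748 to 0.00977 in young and 0.00694 to 0.00816 in aged libraries. On that measure the groups remained apart for Bgn and overlapped for Ecm2. They were apart also for Aspn, which overlapped in CPM, at 0.00140 to 0.00254 in young and 0.00271 to 0.00411 in aged libraries. The smooth muscle markers themselves were lower in aged aorta by sign, 8 of 8. The share of all genes that are apart on this measure was not computed. These ratios were chosen after the values were seen and carry no test.

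**Figure D5:**
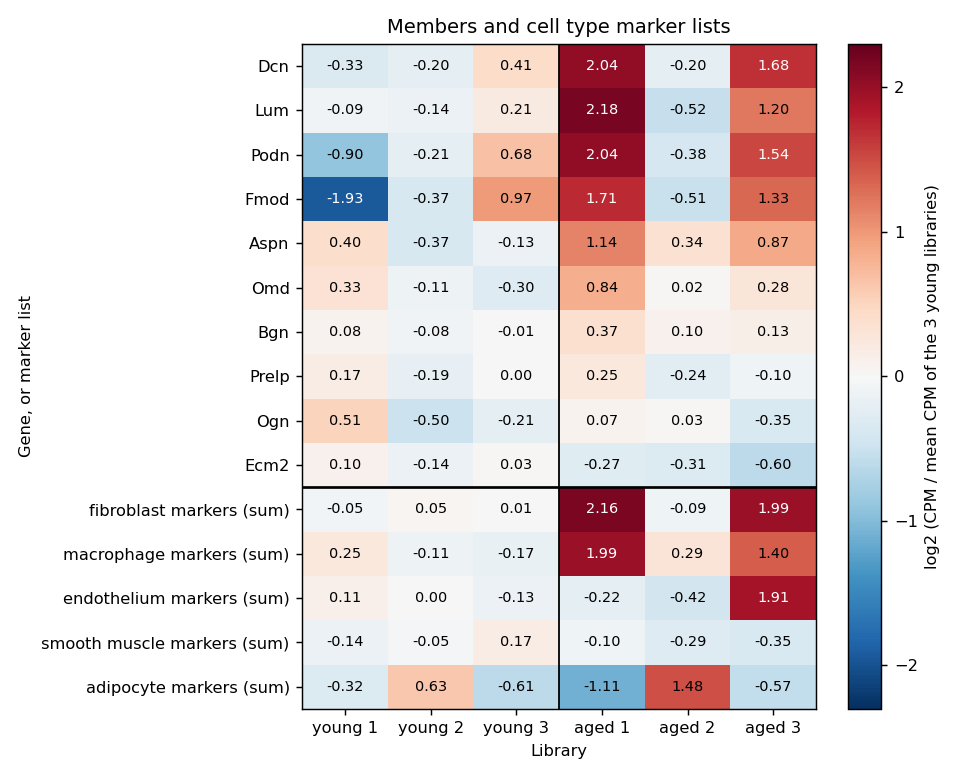
Each cell gives the log2 of the CPM in a library over the mean CPM of the 3 young libraries, for the 10 genes (top) and for summed cell type markers (bottom). Dcn, Lum, Podn and Fmod are red in aged 1 and aged 3 and pale blue in aged 2, as are the fibroblast markers. Ecm2 is blue in all 3 aged libraries.

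The genes whose pattern over the 6 libraries was nearest to that of Dcn, by the root mean square difference of centred log2 CPM among 14083 genes averaging 1 CPM or more, were Serpinf1 (0.086), C4b (0.12), Plscr2 (0.13), Acsbg1 (0.14) and Pcolce (0.15). Serpinf1 is among the fibroblast markers summed above, so its likeness to Dcn and the ratio of Dcn to that sum share values. Of the members, Podn and Lum stood at 0.25 and 0.26 from Dcn, Aspn and Fmod at 0.63, and the others at 0.76 to 1.11, against a median of 0.99 over all these genes. For Bgn the nearest were Ywhae (0.023), Stx3 (0.029), Cep44 (0.036), Gm5601 (0.039) and Asna1 (0.040), with Prelp at 0.14 and a median of 0.34. A gene that varies little is near to many others, so these distances are not comparable between Dcn and Bgn.

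Enzymes that build the sugar chains of these proteins were read next. Of 22 genes for the linkage region and for chondroitin and dermatan sulfate, 21 were tested, with 10 higher, 11 lower and a median log2 fold change of -0.090. An unadjusted p under 0.05 in edgeR was found for 2, both higher. Chst11, a chondroitin sulfotransferase, was at 6.76, 8.18 and 8.41 CPM in young and 11.4, 13.7 and 14.9 CPM in aged libraries, with no overlap (log2 fold change 0.78 ± 0.21, SE). Chpf, which extends chondroitin chains, had 0.66 ± 0.26 (SE). Chpf2, the most abundant of these enzymes, Csgalnact1 and Chst15 had an unadjusted p above 0.05. Of 6 genes for keratan sulfate 5 were tested and 0 had an unadjusted p under 0.05, with a median of 0.15. B3gnt2, the most abundant, ran from 4.24 CPM (aged 3) to 40.2 CPM (young 3), and Chst1, with the smallest p, from 0.611 to 7.35 CPM.

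The collagen chains that these proteins bind were mixed, with most of them lower in aged aorta by sign. Their summed CPM was 7654 to 10880 in young and 10971, 5589 and 7495 in aged libraries. Of 10 chains, 7 were lower in aged aorta and 3 higher, with a median log2 fold change of -0.29, and 2 had an unadjusted p under 0.05 in edgeR, both lower: Col6a3 (-0.90 ± 0.34, SE) and Col5a1 (-0.54 ± 0.22). Next in order of p were Col6a1 with -0.46 ± 0.20 and Col14a1 with 0.59 ± 0.26 (SE), and Col3a1, the most abundant, had -0.29 ± 0.31. Among 13 tested growth factors and receptors that bind members, 9 were higher and 4 lower, and 0 had an unadjusted p under 0.05. Lrp1, a receptor for decorin and the most abundant of them, had a log2 fold change of 0.019 ± 0.25 (SE), and Wisp1 0.92 ± 0.45.

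Of 11 proteases and enhancers that process or cleave members, 9 were tested, 7 higher and 2 lower, with a median log2 fold change of 0.41. Mmp3, a stromelysin that cleaves decorin, was at 24.0, 13.2 and 34.8 CPM in young and 313, 30.7 and 125 CPM in aged libraries (2.70 ± 0.79, SE). Pcolce, an enhancer of procollagen processing, was at 54.4, 74.1 and 93.4 CPM in young and 348, 77.9 and 247 CPM in aged libraries (1.60 ± 0.51, SE). Both were highest in aged 1 and aged 3, as Dcn was, and both had an unadjusted p under 0.05 in edgeR. Bmp1, which removes the propeptides of decorin and biglycan and was the most abundant of this list, had -0.25 ± 0.30 (SE).

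Other proteoglycans, which are large, of basement membranes or of the cell surface, made up 20 genes with 18 tested. With an unadjusted p under 0.05 in edgeR, 2 were higher and 2 lower. Prg4, the lubricin gene, was at 2.74 to 4.50 CPM in young and 39.1, 4.95 and 20.8 CPM in aged libraries (2.54 ± 0.67, SE), and Spock2 had 1.44 ± 0.50. The basement membrane proteoglycans Hspg2 (perlecan, -0.58 ± 0.21) and Agrn (agrin, -0.54 ± 0.18) were lower in every aged library than in any young one. No gene of these lists passed the adjusted threshold of 0.05 in edgeR.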

How the data were processed

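RNA was extracted from aorta, 1 library per mouse, and sequenced in single-ended 50-cycle runs. The counts per gene are whole numbers as deposited by the authors, not normalized, and the FPKM are the authors' values scaled for gene length and library total, proportional to the counts within a gene. Per the labels the build was mm10, and the study's methods name no build for these libraries. Aligner, counter and annotation are not given in the sources used here. Of 55335 identifiers, 55154 were found in GENCODE M21 (GRCm38), the source of positions. Groups were taken from the labels, which give no batch, and 0 columns were left unused. Depth was 31049632 to 45832185 counts per library, and an n of 3 limits the precision more than counting error.

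Low genes were removed in R 4.3.3 by filterByExpr of edgeR 4.0.16, given the groups (count minimum 10, total minimum 15), and the rest was scaled by TMM and fitted by quasi-likelihood without covariates. CPM are TMM-scaled. Adjustment was by Benjamini-Hochberg across every tested gene at 0.05, and SE is the log2 fold change over the square root of F. Ratios were compared with exact permutation tests (scipy 1.17.1). The script was tested on simulated data.

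The members and lists were chosen with earlier results of these data known, and support nothing by themselves. Named are the 10 members, from each list up to 4 genes in order of p and the most abundant one, and the 5 genes nearest to Dcn and to Bgn. Genes named for the make-up or sex of a library, and Kera, Podnl1, Comp, Col2a1, Bglap, Myh6, Epyc and Cenpp, were chosen after their values were seen. Motif matches in promoters are descriptions. Alternatives tried were DESeq2 1.42.0, limma 3.58.1 on log2(FPKM + 1) or log2(FPKM + 0.1), size factors by RLE, no filter or a minimum of 10 counts per library, the replicate number as a block, no mitochondrial genes, each library left out in turn, and, chosen after seeing the data, young 1 and aged 2 left out together.

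Marker lists of skeletal muscle, Schwann cells, mesothelium and red blood cells were read as sums only, 7.61 to 22.7, 11.8 to 30.2, 1.14 to 66.1 and 385 to 868 CPM.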

Additional observations from a re-analysis of the deposited data

How the results depend on the processing

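With 3 mice per group and adjusted p-values over all genes, these data limit what can be called: Dcn passed the threshold under 1 of 15 alternatives. Dcn, Lum, Fmod, Aspn, Omd and Podn were higher and Ecm2 lower in 15 of 15. DESeq2 called 334 genes. Leaving out each library in turn gave 0 to 110 genes called and 0 to 1 members called, in each case 0 but for the fit without aged 2 (110 genes, of which Dcn, 1.87). Reversals were seen for Bgn with limma on FPKM (-0.018 with either pseudocount). Ogn ran from -0.26 to 0.28 and Prelp from -0.17 to 0.087 as libraries were left out, and without young 1 and aged 2 they stood at 0.22 and 0.18, where 0 genes were called and the lowest adjusted p was 0.0542 in edgeR. As libraries were left out, the difference (aged minus young) in the log2 ratio of Fmod to Lum ran from -0.38 (without young 1) to 0.92, and the difference in that of Bgn to Dcn from -1.64 to -0.66. With 2 against 3 the smallest exact p is 0.2. The cause of these shifts was not tested.

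The replicate number as a block called 0 genes and 0 members, with 1782 genes at an unadjusted p under 0.05. Deviations of same-numbered libraries correlated at 0.077, 0.142 and 0.142, so the numbers were not taken as pairs, though 6 of 6 libraries correlated best with their own number, a hint from the data only.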
